A study of Mus musculus with 18 samples.

Results

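The replication-dependent histone genes were described across 18 mouse gene arrays. Members were all probe sets annotated to 1 gene symbol beginning with H1f, H2ac, H2bc, H3c or H4c, or with the older names Hist1h, Hist2h or Hist3h. This rule gave 30 of the 24922 probe sets on the array, each for a different gene: 8 of the linker histone H1 family, 4 of H2A, 9 of H2B, 3 of H3 and 6 of H4. Of these, 24 were classed here as canonical histone genes, by their symbols. The other 6 (H1f6, H1f7, H1f8, H1f10, H2ac1 and H2bc1) are testis, oocyte or replacement forms that the symbol rule also takes in. Genes of the canonical forms lay on chromosome 13 (20 genes) and chromosome 3 (4 genes).

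BRAF cells came from mice of genotype BRAFV600E(CA-flox) / CD11c-Cre(positive), in which Cre recombinase is made by cells that express the integrin CD11c and switches on an activated BRAF kinase. WT cells came from mice that were Cre-negative but carried the same BRAFV600E(CA-flox) allele. Each genotype gave bone marrow derived dendritic cells (BMDC; 3 arrays, femur marrow of mice aged 5 weeks, sorted as live CD11c+CD11b+ cells) and, from unmanipulated mice aged 14 weeks, sorted CD11b+ cells of liver and of lung and CD103+ cells of lung (2 arrays each). Nothing in the labels says whether the numbered replicates are different mice or cultures, so every p-value here reflects the variation among these samples alone, some of which may be technical.

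Histones package DNA into nucleosomes: H2A, H2B, H3 and H4 form the core and H1 binds the linker DNA between cores. Most histone protein is made while DNA is copied, from clustered genes without introns that are transcribed in S phase with the help of NPAT, the coactivator phosphorylated by cyclin E with CDK2. Their mRNAs end in a stem-loop held by SLBP instead of a poly(A) tail, and are degraded when DNA synthesis stops, so they follow the number of cells in S phase. Whether the biotin labelling started from poly(A) is not given in the labels, and in sorted cells measured in bulk a smaller share of cycling cells and less histone RNA per cell cannot be told apart.

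Itgam, which encodes CD11b, ranged from 9.32 to 11.92 on the log2 intensity scale in BMDC, liver and lung CD11b+ cells, against 8.21 to 8.39 in BRAF and 6.87 to 6.9 in WT lung CD103+ cells. Itgae, which encodes CD103, was at 10.6 to 12.18 in the lung CD103+ cells and at 5.74 to 7.65 elsewhere, as the sort labels have it. Braf signal lay between 8.39 and 9.12 on BRAF arrays and between 8.09 and 9.22 on WT arrays, and the array does not tell the alleles apart. Arrays BRAF BMDC 2 and WT liver 3 had a narrower spread of log2 values (interquartile range 1.9 and 1.92) than the others (2.41 to 2.99), and results that change without them are given so. WT BMDC 3 was the highest of its group for 27 of the 30 members.

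The signal of histone probe sets was strong for most members. Between 17 and 18 arrays exceeded their own 30th percentile for 22 members, and H3c7 and H1f8 exceeded it on 0 and 1 arrays and were not tested. H2ac8 passed on 2 arrays only, both from BRAF liver, and H3c15 on 5 (WT BMDC 1 and 3, BRAF BMDC 1 and 3, and BRAF liver 3). These members thus entered the tests through the groups where they were high. The 28 members tested were fitted together with all 16667 probe sets that passed the filter, with limma and Benjamini-Hochberg adjustment, and a probe set was called under an adjusted p of 0.05. The members with the highest mean signal in each family were H1f2 and H1f5, H2ac15 and H2ac1, H2bc14 and H2bc9, H3c4 and H3c15, and H4c4 and H4c14. Signals of different probe sets cannot be ranked as RNA levels, and near-identical copies of histone genes can bind the same probes, so a probe set is named here for the gene of its annotation.

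Liver against lung CD11b+ cells gave the clearest difference among the histone genes. Averaged over both genotypes, 5 of 28 members were called higher in liver and 0 lower: H2bc8, which encodes an H2B, H3c4 and H3c15, which encode H3, H1f3, which encodes the linker histone H1.3, and H2ac8, which encodes an H2A. Over all 16667 probe sets, 0.192% were called higher and 1.82% lower in liver. H2ac8 had passed the filter through the BRAF liver arrays alone, so it had to differ there, and its call adds nothing to the count of the other 4. H3c15 entered through BMDC arrays. Of the liver and lung CD11b+ arrays compared, only BRAF liver 3 exceeded its own 30th percentile for H3c15. The log2 difference was positive for 26 of 28 members, with a median of 0.8, beside a median of 0.01 over all probe sets tested; 1 log2 unit is a 2-fold change.

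H2bc8 stood at 9.92 and 10.24 in BRAF liver (replicates 2 and 3) and 8.83 and 9.24 in WT liver (replicates 3 and 1), against 7.75 and 7.89 in BRAF lung CD11b+ cells and 7.65 and 6.85 in WT lung CD11b+ cells. All 4 liver arrays lay above all 4 lung arrays. The liver minus lung difference was 2.02 ± 0.24 on the log2 scale (SE; limma, adjusted p = 0.000655).

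H3c4 had log2 values of 8.21 and 8.74 in BRAF liver and 7.5 and 7.73 in WT liver, against 6.24 and 6.69 in BRAF lung and 6.7 and 6.2 in WT lung CD11b+ cells. The liver arrays were again all higher, and BRAF liver was the higher of the liver groups. The difference was 1.59 ± 0.18 (SE; limma, adjusted p = 0.000473). H1f3 had 8.23 and 7.54 in BRAF liver and 7.53 and 6.7 in WT liver, against 6.26 and 5.88 in BRAF lung and 6.16 and 5.49 in WT lung. The lowest liver array of H1f3, WT liver 1, exceeded the highest lung array by less than the spread among liver arrays. Its difference was 1.55 ± 0.23 (adjusted p = 0.00453).

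H2ac8 and H3c15 had weaker signals. H2ac8 had 6.19 and 5.97 in BRAF liver and 5.36 and 5.11 in WT liver, against 4.54 and 4.95 in BRAF lung and 4.74 and 4.51 in WT lung. H3c15 had 5.55 and 6.08 in BRAF liver and 4.97 and 5.56 in WT liver, against 3.8 and 4.67 in BRAF lung and 4.8 and 4.45 in WT lung. In both members the liver arrays lay above the lung arrays, WT liver by the smaller step. The differences were 0.97 ± 0.23 for H2ac8 and 1.11 ± 0.26 for H3c15 (limma, adjusted p = 0.0441 and 0.0433), and both calls were fragile. H2ac8 was called with WT liver 1 left out and lost its call when another of the 8 was dropped, its adjusted p reaching 0.19. H3c15 was called with BRAF liver 2 or BRAF lung 2 left out and lost its call when another was dropped, its adjusted p reaching 0.193. H2bc8, H3c4 and H1f3 stayed called under all 20 alternatives run, including each of the 8 arrays left out in turn.

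**Figure D1:**
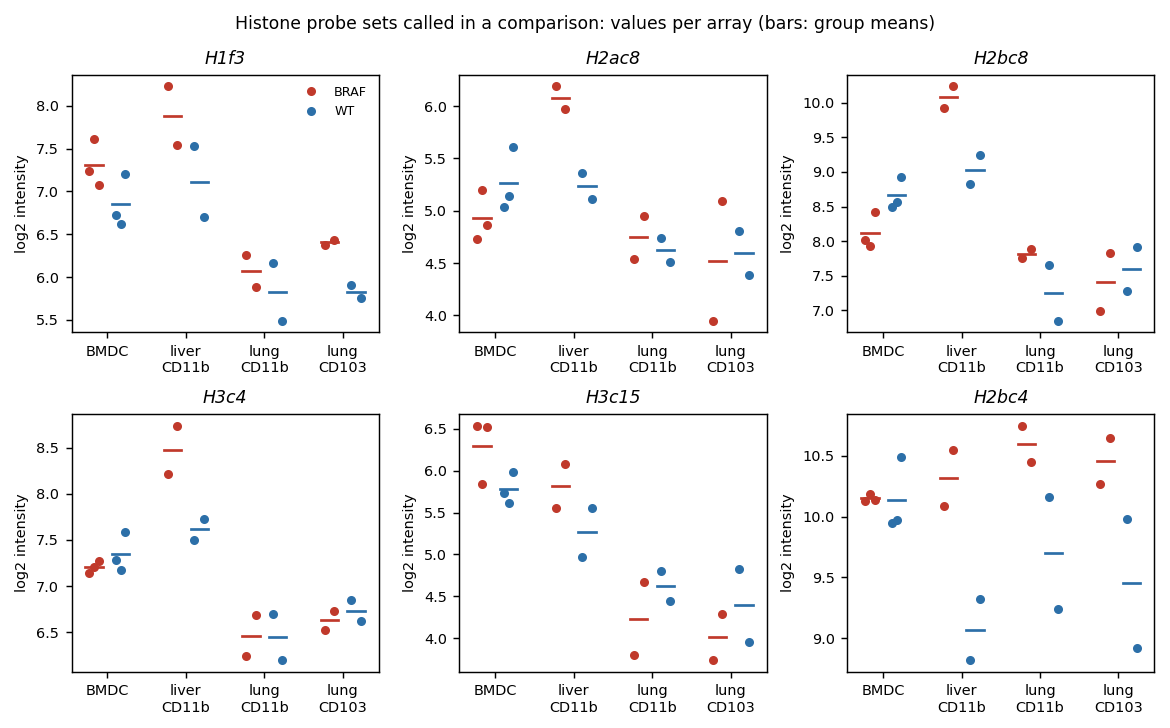
Log2 intensity of the 6 histone probe sets called in any of the comparisons of genotype or of liver with lung, on each of the 18 arrays (points; BRAF left of WT in each population), with group means as bars. H1f3, H2ac8, H2bc8, H3c4 and H3c15 are higher on all 4 liver arrays than on all 4 lung CD11b+ arrays. H2bc4 is higher on both BRAF arrays than on both WT arrays in the 3 organ populations, an order whose share over all probe sets was not counted.

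Each genotype was also tested alone. In BRAF cells 3 members were called higher in liver, beside 0.042% of all probe sets called higher. These were H2bc8 (2.26 ± 0.33, adjusted p = 0.0138), H3c4 (2.01 ± 0.25, adjusted p = 0.00354) and H1f3 (1.82 ± 0.33, adjusted p = 0.0457). In WT cells 2 were called higher, beside 0.252% of all probe sets: H2bc8 (1.79 ± 0.33, adjusted p = 0.0188) and H3c4 (1.17 ± 0.25, adjusted p = 0.0307). H1f3 had a difference of 1.29 ± 0.33 in WT cells and missed the threshold (adjusted p = 0.0621). The difference between the genotypes in this organ contrast was tested as well, and 0 of 28 members were called, beside 0% of all probe sets. For H3c4 that difference was 0.85 ± 0.35 (unadjusted p = 0.0299, limma, adjusted p = 0.556), and H3c4 was the only 1 of 28 members with an unadjusted p under 0.05, beside 8.83% of all probe sets. Without the narrow arrays BRAF BMDC 2 and WT liver 3, 3 members were called in BRAF cells, 0 in WT cells and 4 in the mean of both. Within a genotype single arrays also decided calls: BRAF cells had 1 called member without BRAF liver 3 or BRAF lung 1, and WT cells had 0 without WT liver 3 or WT lung 1 and 1 without WT lung 3. H1f3 lost its call in BRAF cells without any 1 of the 4 BRAF arrays (1.47 to 2.16, adjusted p from 0.0654 to 0.184).

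By family, the canonical members had median liver minus lung differences of 1.16 for H1 (4 tested), 0.55 for H2A (3), 1.08 for H2B (8), 1.35 for H3 (2) and 0.74 for H4 (6). H1f5, another somatic linker histone, had 1.11 ± 0.48 (adjusted p = 0.221), and H1f2 had 0.37 ± 0.31 (adjusted p = 0.499). Among the core histones, H2bc18 on chromosome 3 had 1.47 ± 0.41 (adjusted p = 0.0801) and H4c9 had 0.79 ± 0.2 (adjusted p = 0.0567), and neither was called. H2bc14 had 1.17 ± 0.44, H2bc9 0.98 ± 0.36, H2ac15 0.29 ± 0.3, H4c14 0.63 ± 0.29 and H4c4 0.15 ± 0.4, none of them called (adjusted p from 0.158 to 0.853). H4c4, the member with the strongest signal, had 12.74 and 13.84 in BRAF liver and 12.8 and 12.86 in WT liver, against 12.88 and 12.99 in BRAF lung and 13.23 and 12.55 in WT lung, so its groups overlapped. H2bc4 was the canonical member with a negative difference (-0.46 ± 0.25, adjusted p = 0.321).

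The 5 tested members outside the canonical set had a median of 0.08. The testis-specific H1f6 and H1f7 and the replacement linker histone H1f10 had differences of 0.08 ± 0.16, -0.01 ± 0.19 and 0.01 ± 0.2. The testis form H2bc1 had 1 ± 0.3 (adjusted p = 0.103), and the testis form H2ac1 had 0.27 ± 0.2. H1f8, the oocyte linker histone, was below the filter and had 0.16 ± 0.17 when fitted without it. H3c7, also below the filter, had 0.53 ± 0.29 (adjusted p = 0.326). Over the 18 arrays the SD of log2 signal was 0.205 for H1f6 and 1.17 for H2ac4, the lowest and highest among the 30 members.

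Without regard to the fit, 10 of the 28 tested members had every liver array above every lung CD11b+ array, beside 5.39% of all probe sets tested. These were H1f3, H2ac8, H2bc8, H2bc18, H2bc22, H3c4, H3c15, H4c14, H4c3 and H4c9. H2ac8 had passed the filter through the BRAF liver arrays alone, so it had to be high there and is not support. H3c15 had exceeded the filter on BRAF liver 3 but not on any lung CD11b+ array. The reverse order was found for 0 of 28, beside 5% of all probe sets.

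Of the 5 called genes, 4 were close neighbours. In the RefSeq order of chromosome 13 (GRCm38.p6) the stretch H1f3, H3c6, H2ac8, H2bc8, H2bc7, H2ac7, H3c4 runs without another gene between them. Its ends, H1f3 and H3c4, were set at called genes, so the run of calls in it was partly fixed by that choice. Of its 7 genes 4 have a member probe set, and those 4 were called. Whether called genes lie together more than other genes was not tested. Of these, H2ac8 passed the filter on the BRAF liver arrays alone and lost its call in 14 of 19 alternatives, so the run of calls rests on H1f3, H2bc8 and H3c4. The next gene, H4c4, was not called, and neither was H4c6, the nearest member before H1f3 (difference 0.81). H3c15, the fifth called gene, lies on chromosome 3.

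**Figure D2:**
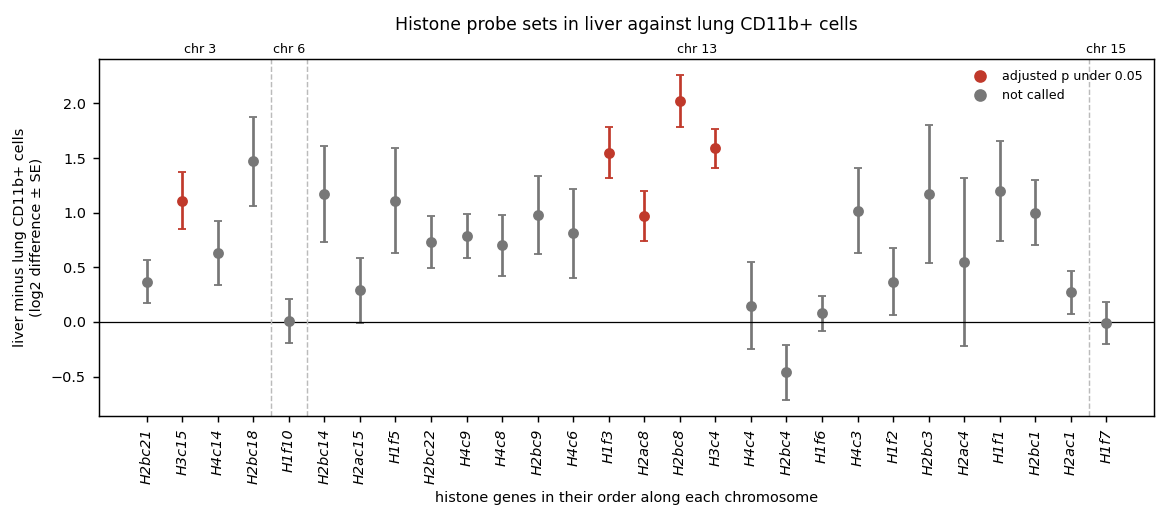
Liver minus lung CD11b+ log2 difference (vertical axis, mean of both genotypes, ± SE) for the 28 tested histone probe sets, placed in their order along chromosomes 3, 6, 13 and 15; red points are called. The 4 called genes on chromosome 13 (H1f3, H2ac8, H2bc8 and H3c4, from 0.97 to 2.02) stand next to each other. They are preceded by H4c6 at 0.81 and followed by H4c4 at 0.15 and H2bc4 at -0.46, none of them called.

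The DNA ahead of these neighbours is shown because the called genes and the uncalled H4c4 can be compared there. Sequences are those of RefSeq on GRCm38.p6, plus strand, 5′ to 3′, and end at the base before the start of the gene. H2ac8 and H2bc8 are transcribed away from each other, and their line holds all 179 bases between the 2 starts (chr13:23571221-23571399). The lines of H3c4 (chr13:23575563-23575762), H1f3 (chr13:23554832-23555031) and H4c4 (chr13:23581368-23581567) hold the 200 bases before the start. Capitals mark matches to 3 motifs, read on either strand. The octamer ATTTGCAT is bound by Oct proteins and is known from H2B promoters. The motif CCAAT is bound by the factor NF-Y. The motif TATAAA is the TATA box.
H2ac8 and H2bc8: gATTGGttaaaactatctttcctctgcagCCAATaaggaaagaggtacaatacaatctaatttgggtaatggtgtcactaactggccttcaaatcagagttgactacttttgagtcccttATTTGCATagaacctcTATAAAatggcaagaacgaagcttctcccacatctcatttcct
H3c4: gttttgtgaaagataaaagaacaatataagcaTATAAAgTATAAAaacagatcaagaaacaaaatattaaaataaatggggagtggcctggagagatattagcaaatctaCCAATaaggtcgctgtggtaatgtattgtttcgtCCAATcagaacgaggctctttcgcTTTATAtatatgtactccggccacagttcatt
H1f3: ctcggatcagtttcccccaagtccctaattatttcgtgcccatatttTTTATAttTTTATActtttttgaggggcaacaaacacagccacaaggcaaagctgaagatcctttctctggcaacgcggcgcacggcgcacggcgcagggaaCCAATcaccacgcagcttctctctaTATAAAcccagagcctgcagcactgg
H4c4: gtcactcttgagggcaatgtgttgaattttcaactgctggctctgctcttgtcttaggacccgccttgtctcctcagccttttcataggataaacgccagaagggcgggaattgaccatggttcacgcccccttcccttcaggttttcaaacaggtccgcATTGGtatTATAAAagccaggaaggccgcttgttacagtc

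In the shared run of H2ac8 and H2bc8 the octamer began 59 bases before the start of H2bc8 and TATAAA began 43 bases before it, with a CCAAT match in each direction near the H2ac8 end. H3c4 held CCAAT matches at 90 and 56 bases before its start, and H1f3 held TATAAA at 26 and CCAAT at 51 bases. H4c4, which was not called, also held TATAAA (at 32 bases) and CCAAT on the other strand (at 40 bases). None of the 3 motifs overlaps another as spelled here. Windows from 250 bases before to 50 after each start were searched on both strands for all 32851 RefSeq promoters and for the 26 members with an entry there (H2bc4, H2bc21, H3c7 and H4c14 had none). The octamer was found in 8 of 26 member windows (30.8%), 5 of them among the 7 of H2B genes, beside 1.74% of all windows. CCAAT was found in 80.8% of member windows beside 37.4% of all, and TATAAA in 57.7% beside 13.6%. The windows of H2ac8 and H2bc8 both hold their shared run, so its matches count for both genes and the windows are not all separate.

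Genes that act with the histone genes did not pass the test between liver and lung. The lists of histone expression factors (SLBP, NPAT and their partners; 19 tested), histone chaperones (18), replacement histone variants (10, H1f10 among them), S phase and DNA replication (41), G2 and mitosis (29) and cell cycle inhibitors (11) had 0 called members each. Their median differences were 0.03, 0.08, 0.31, 0.22, 0.18 and -0.27 in that order. Slbp, which encodes the stem-loop binding protein, had a difference of 0.17 ± 0.32 and Npat, which encodes the coactivator, -0.3 ± 0.21. Casp8ap2, which encodes a protein needed for histone mRNA production, had 0.03 ± 0.21. The proliferation marker Mki67, the replication clamp Pcna and the topoisomerase Top2a had -0.22 ± 0.49, 0.06 ± 0.24 and -0.03 ± 0.57.

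In BRAF cells 40 of 41 S phase genes had a positive liver minus lung difference (median 0.55), beside 25 of 28 histone members (median 0.74). In WT cells 32 of 41 S phase genes had a negative difference (median -0.28), while 25 of 28 histone members had a positive one (median 0.61). The BRAF values depended on the array BRAF liver 3. Its S phase list averaged 9.23 against 7.32 on BRAF liver 2, Mki67 stood at 11.09 against 7.92, and 24 of 30 histone members were higher on it. Without BRAF liver 3, the median histone difference in BRAF cells was 0.26 and 1 member was called there. In the mean of both genotypes H2bc8, H3c4 and H1f3 were still called without it (1.94, 1.46 and 1.72, limma, adjusted p = 0.00364, 0.002 and 0.0049).

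**Figure D3:**
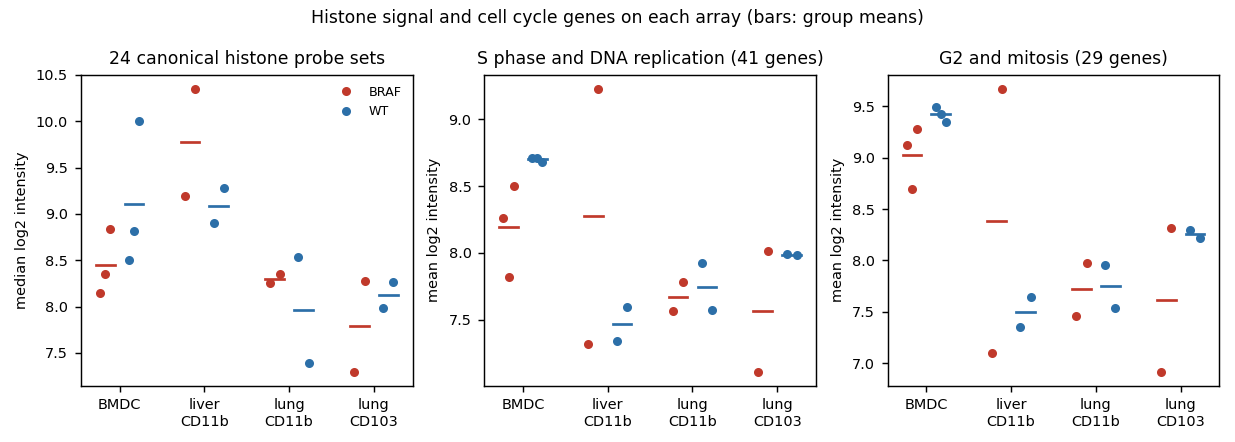
Median log2 intensity of the 24 canonical histone probe sets (left), and mean log2 intensity of 41 S phase genes (middle) and 29 G2 and mitosis genes (right), on each array, with BRAF left of WT in each population and group means as bars. The histone median is between 8.9 and 10.35 on the 4 liver arrays and between 7.39 and 8.54 on the 4 lung CD11b+ arrays, while the S phase mean is between 7.32 and 9.23 in liver and between 7.56 and 7.92 in lung CD11b+ cells.

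Markers of other cells differed between the organs too. The haematopoietic progenitor list averaged 7.91 to 8.28 on liver arrays, against 7.23 to 7.92 on lung CD11b+ arrays, with 1 of 8 genes called higher in liver (Cd34, 2.03 ± 0.23, limma, adjusted p = 0.000619). The hepatocyte list averaged 6.38 to 8.2 in liver and 5.53 to 6.56 in lung, with 0 of 5 genes called, and the plasma cell list averaged 7.2 to 9.45 in liver and 7.31 to 8.16 in lung, with 0 of 6 called. The Kupffer cell list averaged 6.06 to 6.7 in liver and 6.44 to 9.09 in lung, with Timd4 and Folr2 called lower in liver. The lung epithelium list averaged 5.96 to 7.02 in liver and 7.31 to 8.04 in lung, with 1 of 6 genes (Sftpc) called lower in liver. The macrophage list averaged 10.2 to 10.52 in liver and 10.54 to 11.54 in lung, and the erythroid list 6.02 to 6.58 in liver and 5.95 to 6.01 in lung, without overlap in either. The B cell list averaged 6.11 to 6.65 in liver and 6.22 to 8.06 in lung, the T cell list 5.64 to 6.43 in liver and 5.67 to 5.99 in lung, and the NK cell list 5.27 to 6.2 in liver and 5.33 to 5.59 in lung. Of the macrophage, erythroid, B, T and NK cell genes 0 were called. The part of these cells in the histone differences was not tested.

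The genotype comparison called no histone member in any single population. In BMDC 0 of 28 members were called, beside 0.486% of all probe sets, and 0 had an unadjusted p under 0.05, beside 6.61% of all probe sets. In liver CD11b+ cells 0 were called, beside 0.174%, and 5 of 28 had an unadjusted p under 0.05, beside 13.9% of all probe sets. In lung CD11b+ cells 0 were called, beside 0.234%, and in lung CD103+ cells 0, beside 0.078%. In each of the lung populations 1 of 28 had an unadjusted p under 0.05, beside 6.57% of all probe sets for CD11b+ and 4.06% for CD103+ cells. The moderated F test for a genotype effect that differs between populations called 0, beside 0.114% of all probe sets, with the smallest adjusted p, 0.399, at H2bc8. By that test 2 of 28 members had an unadjusted p under 0.05, beside 8.8% of all probe sets.

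The sign of the BRAF minus WT difference varied between populations. It was negative for 22 of 28 members in BMDC (median -0.4) and positive for 20 of 28 in liver (median 0.44) and 24 of 28 in lung CD11b+ cells (median 0.19). In lung CD103+ cells it was negative for 20 of 28 (median -0.1). Over all probe sets tested the medians were 0, 0.08, 0 and -0.08 in the same order. The shares of all probe sets with a positive difference were 50.3%, 56.7%, 50.5% and 35.7%. The sign count of the members in lung CD103+ cells thus lay near the share over all probe sets. Most of these medians rested on single arrays: -0.16 in BMDC without WT BMDC 3, -0.08 in liver without BRAF liver 3, and -0.05 in lung CD11b+ cells without WT lung CD11b 1. For the CD103+ cells, dropping BRAF array 1 gave a median of 0.35 and dropping BRAF array 2 gave -0.56.

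Cell type markers also moved with genotype. The plasma cell list averaged 7.2 to 7.51 in BRAF liver and 8.34 to 9.45 in WT liver (5 of 6 genes with negative differences, 0 called), and 7.31 to 7.57 in BRAF and 7.86 to 8.16 in WT lung CD11b+ cells. The T cell list averaged 5.64 to 5.81 in BRAF liver and 6.34 to 6.43 in WT liver. In liver the NK cell list averaged 5.27 to 5.81 in BRAF and 5.93 to 6.2 in WT cells. The mast cell and basophil list averaged 5 to 5.07 in BRAF and 5.47 to 5.68 in WT liver. Of its 3 tested genes 1 was called lower in BRAF liver, beside 0.174% of all probe sets called in either direction. In BMDC 1 of 11 neutrophil genes was called lower, beside 0.486%. In lung CD11b+ cells the B cell list averaged 6.22 to 6.72 in BRAF and 7.09 to 8.06 in WT cells (0 of 7 called). The conventional dendritic cell list averaged 8.88 to 8.98 in BRAF and 9.28 to 9.54 in WT liver. In lung CD11b+ cells it averaged 8.87 to 9.22 in BRAF and 9.25 to 9.44 in WT cells. Of its 12 genes 1 was called lower in BRAF lung CD103+ cells, beside 0.078% of all probe sets called in either direction. The macrophage list averaged 8.95 to 10.46 in BRAF lung CD103+ cells and 7.08 to 8.48 in WT lung CD103+ cells, with positive differences for 7 of 7 genes (median 2.12) and 0 called. In the mean of the 4 populations 155 of 16667 probe sets were called. Among the markers, 1 of 6 plasma cell, 1 of 3 mast cell and 1 of 6 lung epithelium genes were called lower in BRAF cells. Of the 8 haematopoietic progenitor genes 1 was called higher and 1 lower. The part of these cells in the genotype differences of the histone genes, H2bc4 included, was not tested.

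Averaged over the 4 populations, 1 member was called higher in BRAF cells, beside 0.468% of all probe sets called higher. It was H2bc4, which encodes an H2B and lies beyond H4c4 on chromosome 13. H2bc4 had 10.13, 10.19 and 10.14 in BRAF BMDC, against 9.95, 9.97 and 10.49 in WT BMDC. In liver it had 10.09 and 10.55 in BRAF cells, against 8.82 and 9.32 in WT cells. In lung CD11b+ cells it had 10.75 and 10.45 in BRAF cells, against 10.16 and 9.24 in WT cells. In lung CD103+ cells it had 10.27 and 10.65 in BRAF cells, against 9.98 and 8.92 in WT cells. In each of the 3 organ populations both BRAF arrays lay above both WT arrays, and in BMDC the genotypes overlapped. With so few arrays per group this order is easily reached. Its share over all probe sets was not counted, so the order is not support.

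The mean difference of H2bc4 was 0.79 ± 0.17 (SE; limma, adjusted p = 0.0414). Taken alone, BMDC had 0.02 (adjusted p = 0.983), liver cells 1.25 ± 0.36 (adjusted p = 0.185), CD11b+ cells of the lung 0.9 ± 0.36 (adjusted p = 0.571) and CD103+ cells of the lung 1.01 ± 0.36 (adjusted p = 0.675), none of them called. The call sat near the threshold: it was kept with WT lung CD11b 3, WT lung CD103 1, BRAF BMDC 2, BRAF liver 2 or BRAF lung CD11b 2 left out, and ended with any 1 of the other 13 arrays left out (differences of 0.66 to 0.93, adjusted p up to 0.124). It also ended without the narrow arrays BRAF BMDC 2 and WT liver 3 (0.73, adjusted p = 0.0824) and with the replicate number as a block (0.84, adjusted p = 0.0851). H1f3 had the next smallest p in this comparison, with 0.51 ± 0.16 (adjusted p = 0.192).

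**Figure D4:**
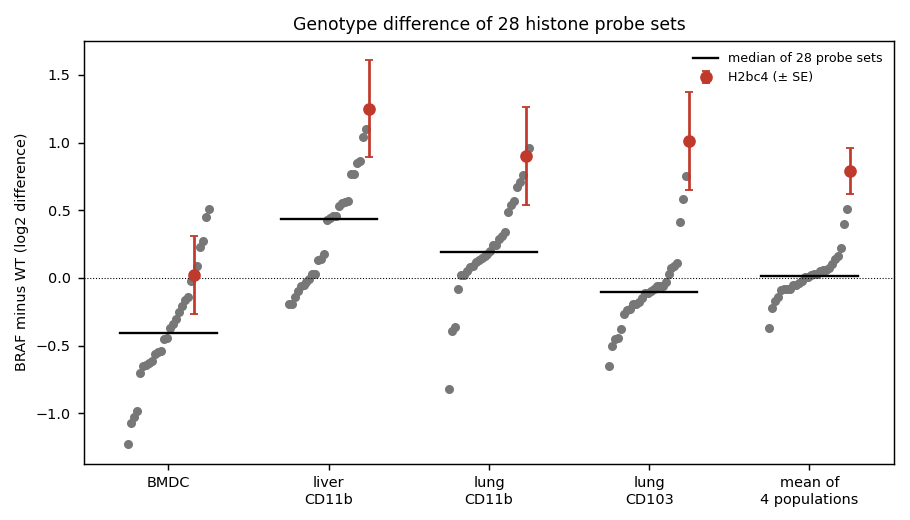
BRAF minus WT log2 difference of the 28 tested histone probe sets (grey points, sorted within each column) in each population and in the mean of the 4, with the median of the members as a bar and H2bc4 in red with its SE. H2bc4 lies at 0.02 in BMDC and between 0.9 and 1.25 in the organ populations, and the medians are -0.4, 0.44, 0.19, -0.1 and 0.02 from left to right.

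The members with the smallest p in each population also missed the threshold. In BMDC these were H4c4 (-0.98 ± 0.46), H4c14 (-0.65 ± 0.34) and H2bc8 (-0.54 ± 0.27), each with a limma adjusted p of 0.744. H4c4 had 13.04, 11.02 and 13.18 in BRAF BMDC, against 13.29, 13.37 and 13.53 in WT BMDC, and the narrow array BRAF BMDC 2 was the low one. H2bc8 had 8.02, 7.93 and 8.42 in BRAF BMDC, against 8.5, 8.56 and 8.93 in WT BMDC, without overlap. In liver H3c4 (0.86 ± 0.25, adjusted p = 0.186) and H2bc8 (1.04 ± 0.33, adjusted p = 0.216) followed H2bc4, and both BRAF liver arrays lay above both WT liver arrays for each. The shares of all probe sets without overlap between the genotypes were not counted, in BMDC or in liver. In lung CD11b+ cells H2bc8 (0.57 ± 0.33) and H2bc22 (0.49 ± 0.34), and in lung CD103+ cells H1f3 (0.58 ± 0.33) and H1f2 (0.75 ± 0.43), came next, with adjusted p of 0.919 to 1.

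The cell cycle lists had 0 called genes in all 4 genotype comparisons. In BMDC all 41 S phase genes had negative BRAF minus WT differences (median -0.47), and in liver all 41 had positive ones (median 0.79), where BRAF liver 2, at 7.32, was below both WT liver arrays, at 7.34 and 7.59. In lung CD11b+ and CD103+ cells the medians were -0.05 and -0.42. The S phase list averaged 7.99 and 7.98 on the WT CD103 arrays, and only BRAF CD103 array 1, at 7.11, lay below them. The S phase mean and the histone median did not move together on every array. On WT BMDC 3 the canonical members stood a median of 0.54 above the other WT BMDC arrays, while its S phase list averaged 8.68, against 8.71 on each of the others. On BRAF CD103 array 2 the canonical members stood 1.02 above array 1, and the S phase list averaged 8.01 on array 2 and 7.11 on array 1.

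Lung CD103+ against lung CD11b+ cells called 0 of 28 histone members, beside 5.37% of all probe sets, and 0 had an unadjusted p under 0.05, beside 13.5% of all probe sets. The difference was positive for 14 and negative for 14 members (median 0.01, beside 0.03 over all probe sets). H3c4 had the smallest p, with 0.23 ± 0.18 (limma, adjusted p = 0.784). The 6 pathway lists also had 0 called genes in this comparison.

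BMDC were set against the mean of the 3 organ populations. These groups differ in culture, tissue and age of the mice, which cannot be told apart. Called higher in BMDC were 2 of 28 members, beside 11.4% of all probe sets called higher. H3c15 had 6.54, 5.84 and 6.52 in BRAF BMDC and 5.74, 5.62 and 5.99 in WT BMDC, against 3.74 to 6.08 on the 12 organ arrays, with the liver arrays highest among these. Its difference was 1.32 ± 0.19 (limma, adjusted p = 0.000142). H3c15 had passed the filter through BMDC arrays, so it had to be high there, and its call is not support for a difference. H1f3 had 0.56 ± 0.17 (limma, adjusted p = 0.027). H1f3 lost its call without WT BMDC 3, BRAF BMDC 1, BRAF BMDC 2 or WT lung CD11b 1 (0.47 to 0.58, adjusted p from 0.051 to 0.0926), and the count of called members was 5 without BRAF liver 3.

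Genes of the cell cycle and of histone handling were counted in that comparison too, against the 11.4% of all probe sets called higher and the 7.52% called lower. Higher in BMDC were 11 of 41 S phase genes, among them the cyclin E genes Ccne1 (1.64 ± 0.25, limma, adjusted p = 0.000294) and Ccne2 (1.68 ± 0.34, adjusted p = 0.00245) and the clamp loader subunit Rfc3 (0.62 ± 0.14, adjusted p = 0.00538). Of the G2 and mitosis genes 28 of 29 were higher, among them the kinetochore gene Ndc80 (1.09 ± 0.18), the checkpoint kinase Bub1 (1.95 ± 0.33) and Hmmr (1.89 ± 0.33), with Mki67 at 1.18 ± 0.35. Of the histone expression factors 2 of 19 were higher, Ccne1 and Ccne2, which the S phase list also holds. Of the histone chaperones 3 of 18 were higher: Hat1, an H4 acetyltransferase (0.77 ± 0.17), and Asf1b (1.63 ± 0.4) and Chaf1b (1.16 ± 0.34), which hand H3 and H4 to new DNA. The centromeric H3 variant Cenpa was higher by 1.03 ± 0.29 (1 of 10 replacement variants), and the inhibitor of proliferation Btg2 had a difference of -2.03 ± 0.16 and was lower (1 of 11 cell cycle inhibitors; limma, adjusted p = 4.67e-07). The counts of expression factors, chaperones, replacement variants and inhibitors lie near the shares over all probe sets, and the share of called genes was not tested between lists.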

How the data were processed

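Total RNA of 18 samples, a Trizol extract with a biotin label per the labels' protocols, was measured on 1-colour Affymetrix gene arrays. The authors deposited linear intensity values (4.9 to 20362; array medians 93.7 to 113.2), and their normalization is not given in the sources used. The number of arrays limits the precision.

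Values were put on the log2 scale without a pseudocount or further normalization. Of 24922 probe sets, 21425 had 1 symbol, 1399 had several and 2098 were unlisted; Entrez numbers matched RefSeq for 21347. Tested were the 16667 probe sets with 1 symbol that exceeded the 30th percentile of 2 or more arrays. One model of group means for the 18 arrays (limma 3.58.1, R 4.3.3) left 10 residual degrees of freedom, with a prior of 4.8, with Benjamini-Hochberg adjustment over all probe sets tested. Plots and tables came from matplotlib 3.10.9, pandas 2.3.3, numpy 2.4.6 and Python 3.11.15. The fit was also run on simulated data with independent noise for each probe set and array. That noise lacks shifts shared by many probe sets on an array, so the run does not cover them. Its outcome is not given here.

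The members, the gene lists (244 entries, 227 matched) and the tests were chosen with earlier results of these data known. Named were, per family, the 2 members with the highest mean signal; up to 4 called members per direction and comparison; the 3 with the smallest p in genotype comparisons without calls; H1f6, H1f7, H1f8 and H1f10; Braf, Slbp, Npat, Casp8ap2, Mki67, Pcna and Top2a; and up to 3 called genes per list. Other members and marker genes named were chosen after their values were seen.

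Replicate numbers were checked for pairing through the correlation of deviations from group means. Same-numbered CD11b+ and CD103+ arrays of the lung deviated together (r = 0.23 in BRAF and 0.177 in WT; the pairs of a genotype share 1 value where groups hold 2 arrays), so a fit with a replicate block was run.

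Alternatives were quantile normalization, median centring, other filters, 1 probe set per gene, trend and robust eBayes, array weights, only the groups compared, replicate blocks, leaving out the narrow arrays, and leaving out each array.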

Additional observations from a re-analysis of the deposited data

How the results depend on the processing

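Across alternatives, 48 of 238 counts of called histone members moved by over 1.5 times, and the cause was not tested. Calls over all probe sets moved as well, so the member counts below are not results about histone genes alone. Aside from leaving out single arrays, all calls ran from 115 to 384 for liver minus lung CD11b+ cells in the mean of both genotypes (335 in the main fit). They ran from 0 to 39 in BRAF cells (27) and from 73 to 331 in WT cells (329). For the mean genotype effect they ran from 112 to 306 (155), and for BMDC minus organs from 2835 to 7069 (3146). For liver minus lung CD11b+ cells in the mean of both genotypes (5 called), several alternatives gave 3. These were quantile normalization, median centring, the filter at the 50th percentile, array weights and only the groups compared. Genotype and replicate number together as a random block (block correlation -0.059) also gave 3, and leaving out 1 array gave 3 to 6. H2bc8, H3c4 and H1f3 kept their calls in all 20 of these (adjusted p up to 0.00917, 0.0205 and 0.0433), whereas H2ac8 lost its call in 14 of 19 and H3c15 in 12 of 19. In BRAF cells (3 called) array weights gave 1, only the groups compared 0, and leaving out 1 array 1 to 4. In WT cells (2 called) median centring and only the groups compared gave 1, array weights and leaving out the 2 narrow arrays 0, and leaving out 1 array 0 to 3. In the mean genotype effect (1 called, H2bc4) median centring, array weights, the fixed replicate block and leaving out the narrow arrays gave 0, leaving out 1 array 0 to 1, and the adjusted p ran from 0.0123 to 0.124. For BMDC minus organs (2 called) the 50th percentile filter gave 1, array weights 6, the fixed replicate block 4, leaving out the narrow arrays 4, and leaving out 1 array 1 to 5. The 7 comparisons with 0 called stayed at 0 in 128 of 129 alternatives; array weights gave 3 for genotype in BMDC, where they called 1844 probe sets in all. Of 465 values of single genes 5 changed sign, all of them H2bc4 in BMDC (0.02): -0.07 after median centring, 0 without the narrow arrays, and between -0.08 and 0.19 with 1 array left out.

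Outside the pairs of lung populations the replicate numbers did not deviate together throughout: same-numbered arrays had correlations of 0.037 between liver and lung CD11b+ cells, 0.475, -0.233 and -0.377 between the BMDC genotypes, and 0.228 to 0.319 between WT BMDC and WT CD11b+ cells of liver or lung. With the number as a fixed replicate block, liver minus lung gave 4 called members in the mean, 2 in BRAF and 3 in WT cells, and every comparison with 0 called stayed at 0. Weak probe sets such as H2ac8 and H3c15 exceeded the 30th percentile on 2 and 5 arrays.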

Other observations

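A further 24 probe sets are annotated to several histone genes at once and so were not members. They were fitted with 17791 probe sets of 1 or several symbols in an alternative added after seeing the data. In liver minus lung CD11b+ cells all 24 had a positive log2 difference (median 0.32, from 0.24 to 1.41), and 1 was called higher (limma, adjusted p = 0.0199), beside 1.82% of all probe sets called in either direction. In BRAF minus WT BMDC all 24 had a negative difference (median -0.49), with 0 called and a smallest adjusted p of 0.747. In BRAF minus WT liver CD11b+ cells 19 of 24 were positive (median 0.23), with 0 called. In BRAF minus WT lung CD103+ cells 23 of 24 were negative (median -0.27), with 0 called. Many of these probe sets repeat nearly the same signal. Those annotated mainly to H3 genes had mean log2 signals of 12.78 to 12.99 and liver minus lung differences of 0.25 to 0.31. The counts out of 24 are thus not counts of separate measurements.

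Another alternative chosen after seeing the data took the mean BRAF minus WT effect over the 3 organ populations only. H2bc4 then had a log2 difference of 1.05 (limma, adjusted p = 0.0281). BMDC, the population left out, had a difference of 0.02 for H2bc4, so a larger mean had to follow. The adjustment does not cover this choice, and the value is not further support.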
